A study of Mus musculus with 4 samples.

Results

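The 5 olfactory receptor gene clusters described here are stretches of mouse chromosomes 2, 9, 10, 16 and 19, followed for when in S phase their DNA was copied. They were chosen by position alone on mouse build mm9. All non-control probes of the array with their midpoint at 85 to 90 Mb of chromosome 2, 37.5 to 40.1 Mb of chromosome 9, 128.6 to 129.6 Mb of chromosome 10, 58.5 to 59.6 Mb of chromosome 16 or 11.9 to 14.1 Mb of chromosome 19 were taken. This gave 1059 of 170183 probes, of which 1058 were usable on all 4 arrays. The usable probes numbered 447 on chromosome 2, 231 on chromosome 9, 89 on chromosome 10, 95 on chromosome 16 and 196 on chromosome 19, with a median spacing of 10273 bp. Of the 12000 windows of 200 kb that tile the genome with at least 5 usable probes, 57 lay wholly inside a cluster. The 1 Mb on either side of each cluster served for comparison and held 757 usable probes.

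The cells were mouse embryonic fibroblasts (MEFs), a culture of connective tissue cells from embryos, and each of 4 groups was measured on 1 array of 2 colours. The groups were KO cells, with deletion of the floxed SUV4-20H1 allele, control cells, which the study's design text calls WT, induced suv4-20h mutant cells and non-induced suv4-20h mutant cells. The labels of all 4 groups, control and non-induced cells included, list 4-hydroxytamoxifen (1 mM, 24 hours) as the agent that removed the allele. They thus do not set treated cells apart from untreated ones. They also do not say how induction was done, which recombinase acted, or whether the control cells carry the floxed allele. All groups were grown in 3% O2 and 5% CO2, took up the nucleotide analogue BrdU at 50 µM for 1 hour, and had 80000 cells sorted into early and late S phase. The labels name a single cell line, as 362.2 in one field and 364.2 in another. BrdU-labelled DNA of the early fraction (Cy3, green) and of the late fraction (Cy5, red) was amplified genome-wide and hybridised to the same array, with no dye swap.

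Timing below is early signal over late signal on the log2 scale, set to 0 at the median autosomal probe of each array, so that a negative value means later replication than that probe. Errors are standard errors (SE) over probes within a region. Probes of 1 array are not replicates of a condition, and with 1 array per group no test between conditions was possible. KO and control shared 1 slide, and induced and non-induced cells another. Timing of the windows spread over 2.31 log2 units between the 10th and 90th percentile in KO, 1.81 in control, 2.70 in induced and 2.07 in non-induced cells. Of 122 probes on chromosome Y, 106 were well above background on the KO array, 50 on the control, 41 on the induced and 53 on the non-induced array, and the part of this in the differences below was not tested.

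Olfactory receptor genes encode the odorant-detecting G protein-coupled receptors of the nose and form the largest gene family of the mouse, arranged in long tandem arrays. Each olfactory sensory neuron expresses a single receptor gene, while the other receptor genes lie in compacted heterochromatin marked by methylated histones H3 and H4. Fibroblasts are not known to use this family for their function, and long clusters of silent tissue-specific genes commonly replicate late in S phase. The Suv4-20h enzymes are histone methyltransferases that add further methyl groups to a lysine in the tail of histone H4, a mark of heterochromatin.

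The array files name no genes, and RefSeq's gene table is of build GRCm38.p6, so genes were not placed on the mm9 bounds. By neighbour order in that table, with at most 2 other protein-coding genes between olfactory receptor genes, the longest run on chromosome 2 held 222 of the chromosome's 287 olfactory receptor genes and lay between Lrrc55 and Ptprj, a receptor-type tyrosine phosphatase. The longest runs on chromosomes 9, 10, 16 and 19 held 95 of 130, 58 of 68, 25 of 36 and 41 of 63. The genes next to these runs were Panx3, a pannexin channel protein, and Zfp202, a zinc finger protein, on chromosome 9, and Mettl7b and Neurod4, a neuronal transcription factor, on chromosome 10. They were Cldnd1 and Gabrr3, a GABA receptor subunit, on chromosome 16, and Lpxn, an adaptor protein of cell adhesion sites, and Tle4, a transcriptional corepressor, on chromosome 19. Genes that are not protein-coding were not counted, and the limit of 2 keeps the number of others low. Few other protein-coding genes sat within the runs. These were Fads2b, Pramel7 and Pramel6 on chromosome 2, Vwa5a, AW551984 and Tmem225 on chromosome 9, and Gm10310 on chromosome 10.

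The runs share promoters that are poor in G and C. Over the 250 bases before the annotated start, 372 of the 441 genes of the 5 runs had a sequence in RefSeq's GRCm38.p6 table, with a median GC content of 32.0%, against 52.4% for 26081 promoters of other genes. TAATTA, a core of homeodomain binding sites that reads the same on both strands, was present in 20.7% of the runs' promoters, against 4.51% of the others and 4.98% of all 27025. CCCNNGGG, the core bound by Ebf factors, also the same on both strands and unable to overlap TAATTA, was present in 1.61%, against 11.99% of the others and 11.7% of all. Of genes shorter than 1000 bases, 254 of 263 began with ATG at the annotated start, so for many of these genes the window is the stretch before the coding start and not a mapped promoter. A match is a run of letters and not a measured binding site. Runs of A and T are met more often in AT-rich windows, and runs of C and G less often. The shares that base composition alone would give were not computed. Neither contrast therefore shows a gain or a loss of sites. The sequences below show the AT-rich makeup of these windows, with TAATTA in capitals. They belong to the first gene over 1500 bases in gene order that holds TAATTA in its run, and the runs of chromosomes 9 and 10 had no such gene. They lie on GRCm38.p6 at chr2:85979062-85979311 (+ strand), chr16:59168142-59168391 (- strand) and chr19:13341510-13341759 (+ strand), which cannot be set against the mm9 bounds above. They are the 250 bases before Olfr1030 of chromosome 2 (32.8% GC), Olfr196 of chromosome 16 (30.0% GC) and Olfr1466 of chromosome 19 (31.6% GC).
Olfr1030: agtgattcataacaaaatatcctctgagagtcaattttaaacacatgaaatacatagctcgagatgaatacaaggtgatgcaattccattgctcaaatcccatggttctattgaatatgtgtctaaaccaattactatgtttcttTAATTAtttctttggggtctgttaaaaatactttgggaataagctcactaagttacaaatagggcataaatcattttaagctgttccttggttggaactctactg
Olfr196: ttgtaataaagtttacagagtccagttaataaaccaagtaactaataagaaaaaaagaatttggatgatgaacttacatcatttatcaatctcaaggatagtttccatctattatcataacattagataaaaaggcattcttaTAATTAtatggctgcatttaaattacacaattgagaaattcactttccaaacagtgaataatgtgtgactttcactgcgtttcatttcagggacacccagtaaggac
Olfr1466: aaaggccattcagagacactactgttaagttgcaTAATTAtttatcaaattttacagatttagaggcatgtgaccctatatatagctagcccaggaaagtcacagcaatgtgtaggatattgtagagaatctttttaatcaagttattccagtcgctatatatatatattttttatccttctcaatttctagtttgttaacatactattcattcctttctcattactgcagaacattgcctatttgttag

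All 5 clusters replicated later than the genome's median probe on all 4 arrays, and later than the mean of their own 2 flanks. Over the 1058 probes, mean timing was -1.15 ± 0.02 in KO, -0.42 ± 0.02 in control, -1.24 ± 0.03 in induced and -0.72 ± 0.02 in non-induced cells (SE over probes). Over the 757 flank probes it was 0.00 ± 0.04 in KO, 0.17 ± 0.03 in control, 0.11 ± 0.04 in induced and 0.18 ± 0.04 in non-induced cells. Clusters minus flanks was therefore -1.15 ± 0.04 in KO, -0.58 ± 0.03 in control, -1.36 ± 0.05 in induced and -0.91 ± 0.04 in non-induced cells. The share of cluster probes with a value below 0 was 93.5% in KO, 75.8% in control, 91.8% in induced and 87.1% in non-induced cells. For the flanks these shares were 43.2%, 39.6%, 39.1% and 39.8% in the same order of groups.

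By cluster, the values of chromosome 2, the largest cluster, were -1.16 ± 0.03 in KO, -0.17 ± 0.03 in control, -1.13 ± 0.04 in induced and -0.56 ± 0.03 in non-induced cells. Chromosome 9 had -1.16 ± 0.04 in KO, -0.48 ± 0.03 in control, -1.36 ± 0.06 in induced and -0.75 ± 0.04 in non-induced cells. Both clusters were lower on the KO and induced arrays than on the control and non-induced arrays. The chromosome 10 cluster had -1.42 ± 0.08 in KO, -0.77 ± 0.05 in control, -1.35 ± 0.11 in induced and -0.99 ± 0.09 in non-induced cells. On chromosome 16, the values were -0.98 ± 0.08 in KO, -0.50 ± 0.05 in control, -1.32 ± 0.08 in induced and -0.97 ± 0.06 in non-induced cells. There the KO and non-induced arrays did not differ beyond their standard errors, and the same holds for the KO and induced arrays on chromosomes 2 and 10. The chromosome 19 cluster had -1.08 ± 0.05 in KO, -0.70 ± 0.03 in control, -1.29 ± 0.06 in induced and -0.81 ± 0.05 in non-induced cells. The control array was the highest of the 4 in every cluster, with the chromosome 2 cluster at the top and the chromosome 10 cluster at the bottom of its order.

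**Figure D1:**
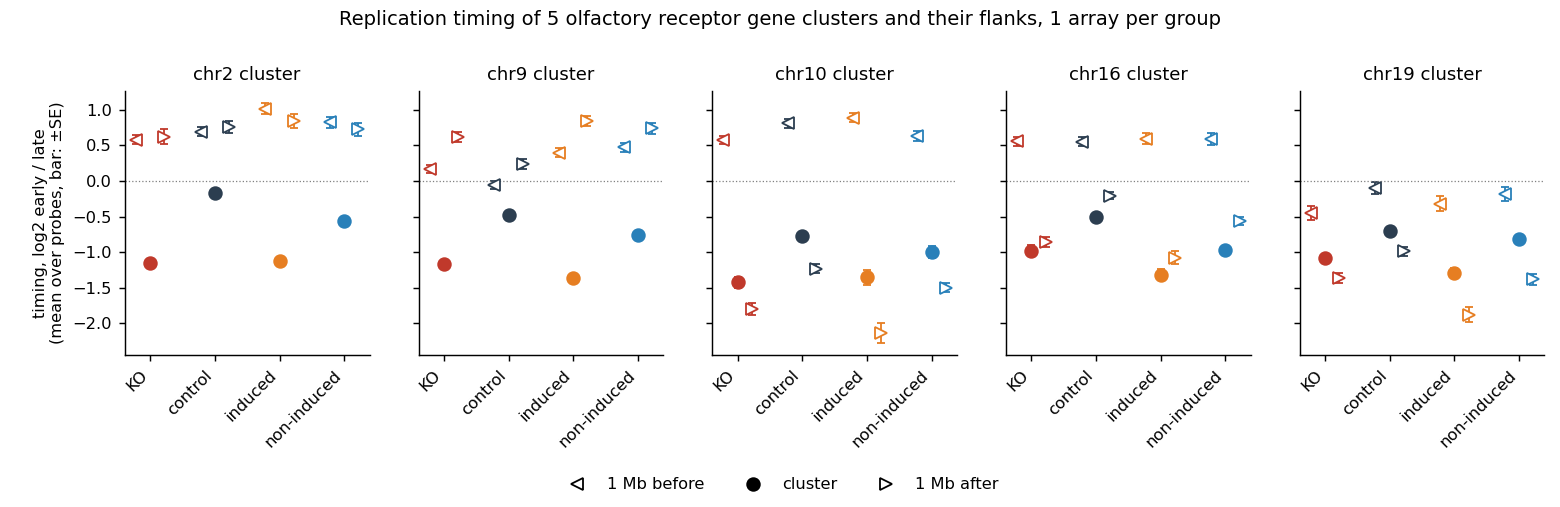
Mean timing (log2 early over late, bars ± SE over probes) of each cluster and of the 1 Mb before and after it, on the KO, control, induced and non-induced arrays. The clusters lie below 0 on all arrays, from -1.42 to -0.17, while the flanks of chromosome 2 lie between 0.58 and 1.02 and the flank after chromosome 10 lies between -2.13 and -1.23.

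The clusters differed in their surroundings. Chromosome 2 was flanked by early DNA on both sides, at 0.58 before and 0.62 after the cluster in KO, 0.69 and 0.76 in control, 1.02 and 0.84 in induced, and 0.82 and 0.73 in non-induced cells. At its left edge in KO cells, the last 250 kb before the cluster were at 0.35 and the first 250 kb inside it at -1.21. In control cells these 2 stretches were at 0.24 and -0.72, in induced cells at 0.95 and -0.23, and in non-induced cells at 0.82 and -0.21. The drop on this side thus lay inside the cluster bound on the slide of the induced and non-induced cells, whose next 250 kb were at -1.27 and -1.17. Chromosome 9 also had early flanks in KO cells, at 0.16 before and 0.61 after the cluster, while control had -0.06 and 0.24, induced cells 0.40 and 0.84, and non-induced cells 0.47 and 0.74.

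The chromosome 10 cluster sat between an early and a late side, and the chromosome 16 cluster between an early side and one nearer the median window. Before the chromosome 10 cluster, timing was 0.57 in KO, 0.81 in control, 0.89 in induced and 0.63 in non-induced cells, and after it -1.79, -1.23, -2.13 and -1.50 in the same order. The late side rests on 29 probes, because the last probe of the chromosome lies at 129.96 Mb, and it was later than the cluster itself on every array. Before the chromosome 16 cluster, timing was 0.56 in KO, 0.55 in control, 0.59 in induced and 0.59 in non-induced cells, and after it -0.86, -0.21, -1.08 and -0.56. The flank after chromosome 16 was earlier than its cluster on every array. Among autosomal windows, where percentile 0 is the latest, it ranked at 36.3 in KO, 46.9 in control, 31.7 in induced and 36.6 in non-induced cells. Both flanks of chromosome 19 averaged below 0, with -0.45 in KO, -0.10 in control, -0.32 in induced and -0.18 in non-induced cells before it and -1.36, -0.99, -1.88 and -1.38 after it, the second over 48 probes. It was the cluster least set apart, with cluster minus flanks at -0.33 ± 0.09 in KO, -0.31 ± 0.07 in control, -0.47 ± 0.12 in induced and -0.24 ± 0.10 in non-induced cells. With flanks of 0.5 Mb this difference was above 0, at 0.08 in KO, 0.07 in control, 0.088 in induced and 0.24 in non-induced cells, and with flanks of 2 Mb it was -0.92, -0.73, -1.06 and -0.64. For comparison, cluster minus 1 Mb flanks on chromosome 2 was -1.76 ± 0.07 in KO, -0.90 ± 0.06 in control, -2.06 ± 0.07 in induced and -1.33 ± 0.07 in non-induced cells.

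In rank, most cluster windows were below the genome's median, and the clusters differed in how far below. Among all autosomal windows of an array, where percentile 0 is the latest, the chromosome 2 cluster's mean ranked at percentile 21.4 in KO, 48.2 in control, 29.5 in induced and 36.8 in non-induced cells. The chromosome 2 cluster of the control cells was thus close to the genome's median window. The chromosome 10 cluster ranked at percentile 8.59 in KO, 19.3 in control, 20.3 in induced and 17.2 in non-induced cells. Ranks of the chromosome 19 cluster lay close together, at 25.9 in KO, 23.2 in control, 23.2 in induced and 25.9 in non-induced cells, higher in KO than in control and lower in induced than in non-induced cells. By its median window the chromosome 19 cluster was lower in both, at percentile 20.9 in KO, 23.0 in control, 12.8 in induced and 24.5 in non-induced cells. Chromosome 16 ranked at 30.9 in KO, 34.0 in control, 21.7 in induced and 18.4 in non-induced cells, and chromosome 9 at 21.3, 35.2, 19.8 and 28.4. Of the 57 windows, 15 in KO, 6 in control, 17 in induced and 14 in non-induced cells were in the latest 10% of their array, and 37, 18, 30 and 23 were in the latest 25%.

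**Figure D2:**
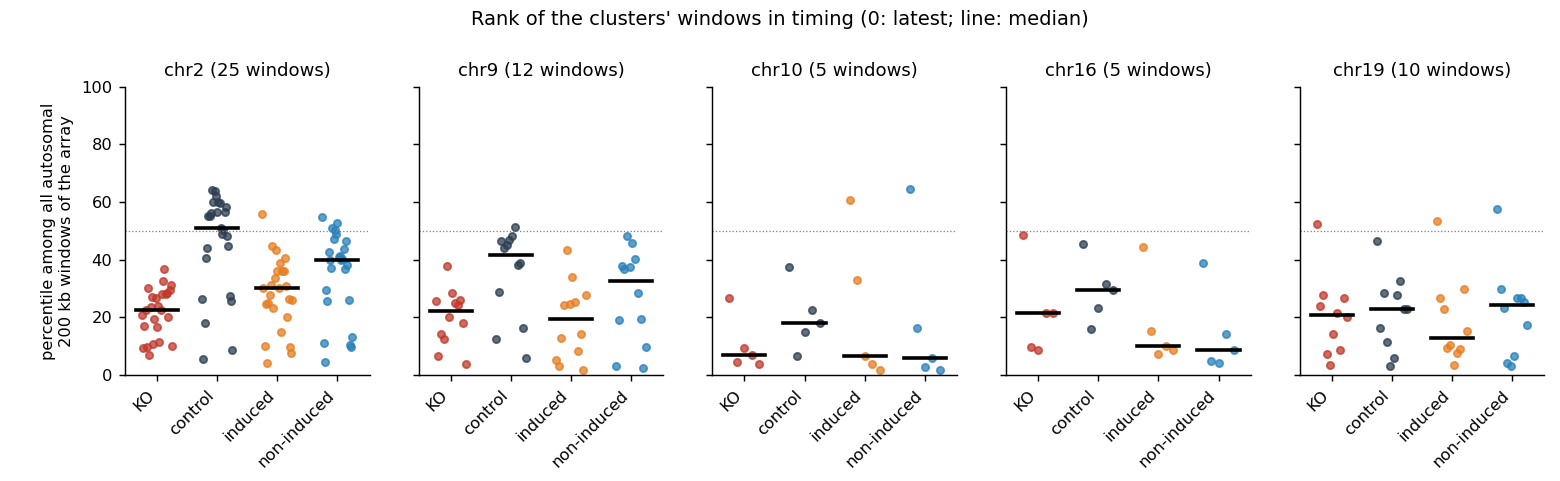
Percentile of each of the 57 cluster windows of 200 kb among all autosomal windows of the same array (0 is the latest, points are windows, lines are medians), by cluster and group. In control cells the 25 windows of chromosome 2 have a median percentile of 50.9, against 22.7 in KO cells, while the medians of chromosome 19 lie between 12.8 and 24.5 on the 4 arrays.

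Within the clusters of chromosomes 2 and 9, control cells had an earlier middle and later ends, while the values of KO cells were closer to level. When each cluster was split into 3 equal lengths, the first, middle and last stretch of chromosome 2 were at -1.25, -1.18 and -1.05 in KO cells, against -0.37, 0.12 and -0.31 in control cells (SE 0.03 to 0.06). In induced cells they were at -1.20, -0.997 and -1.20, against -0.68, -0.30 and -0.72 in non-induced cells. The middle was the earliest stretch in control, induced and non-induced cells, and its margin over the ends was widest in control. Over the windows of chromosome 2, timing ran between -1.46 and -0.85 in KO cells (SD 0.16), between -1.03 and 0.26 in control cells (SD 0.38), between -1.80 and -0.06 in induced cells (SD 0.37) and between -1.28 and -0.02 in non-induced cells (SD 0.36). On chromosome 9 the 3 stretches were at -1.21, -1.07 and -1.20 in KO cells, against -0.54, -0.19 and -0.70 in control cells, and at -1.57, -1.08 and -1.45 in induced cells, against -0.90, -0.40 and -0.97 in non-induced cells.

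The earlier middle of chromosome 2 was also dim. Its mean early signal, relative to the channel's autosomal median on the log2 scale, was -1.71 in KO, -0.57 in control, -1.996 in induced and -1.55 in non-induced cells, and its late signal was -0.60, -0.71, -0.99 and -1.19. The share of its early-channel probes well above background was 78.3% in KO, 95.7% in control, 55.3% in induced and 83.2% in non-induced cells. Over the 85 of its 161 probes that were well above background in both channels on all arrays, timing was -0.95 ± 0.06 in KO, 0.03 ± 0.04 in control, -0.77 ± 0.07 in induced and -0.35 ± 0.05 in non-induced cells. The order of the 4 arrays was the same over these brighter probes.

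The clusters of chromosomes 10, 16 and 19 had a different shape. On chromosome 19 the middle was the latest stretch, at -1.42 in KO, -0.98 in control, -1.70 in induced and -1.21 in non-induced cells, while its first stretch was at -0.64, -0.48, -0.75 and -0.36. The first stretch of chromosome 16, next to its early flank, was at -0.38 in KO, -0.20 in control, -0.69 in induced and -0.49 in non-induced cells, and the middle at -1.41, -0.73, -1.64 and -1.31. The first window of chromosome 10, from 128600001 to 128800000, was at -1.06 in KO and -0.43 in control cells, against 0.24 in induced and 0.41 in non-induced cells. Here the arrays differed between the 2 slides more than within them, as they did in the first window of chromosome 2 (85000001 to 85200000), at -1.17 in KO, -0.65 in control, -0.06 in induced and -0.02 in non-induced cells. Slide and cells cannot be told apart in these differences. The highest windows of chromosomes 9 and 16 over the 4 arrays were at -0.82 in KO, -0.25 in control, -0.73 in induced and -0.26 in non-induced cells (38400001 to 38600000) and at -0.40, -0.24, -0.68 and -0.51 (58600001 to 58800000). Both stayed below 0 on all arrays. The first 100 kb of the chromosome 16 cluster lie in no whole window. There 5 probes averaged 0.73 in KO, 0.64 in control, -0.07 in induced and 0.12 in non-induced cells. The lowest window of chromosome 9 (39600001 to 39800000) was at -1.22 in KO, -0.81 in control, -1.94 in induced and -1.36 in non-induced cells, and that of chromosome 19 (12800001 to 13000000) at -1.60, -1.11, -1.60 and -1.33.

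**Figure D3:**
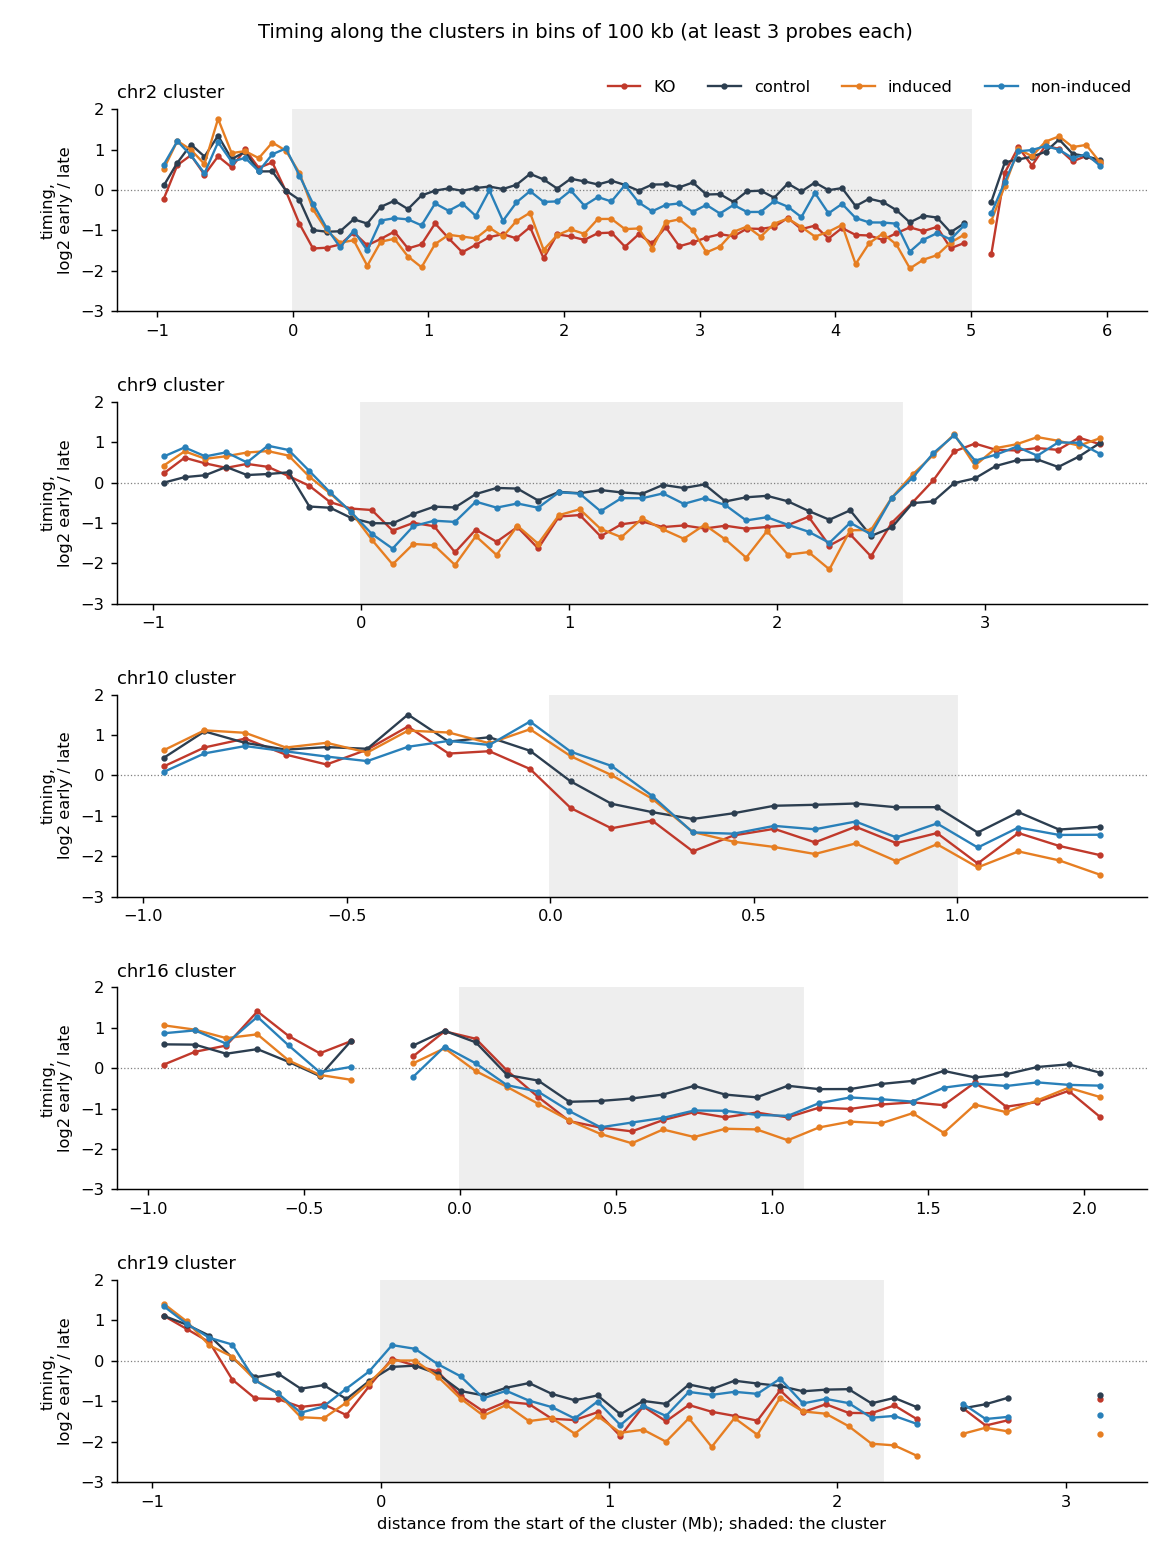
Timing (log2 early over late) in bins of 100 kb with at least 3 probes along the 5 clusters (shaded) and their 1 Mb flanks, against the distance from the start of the cluster in Mb, with a line per group. The control line rises to about 0 inside the chromosome 2 cluster, where the middle stretch averages 0.12, while the KO line stays low, at -1.18.

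The first comparison the design sets up is of KO with control cells. The clusters were later in KO cells, with a KO minus control difference of -0.73 ± 0.02 over all 1058 probes and 87.1% of probes lower, while the flanks differed by -0.16 ± 0.02 and the median of all 12000 windows by -0.16. The cluster differences, KO minus control, were -0.98 ± 0.04 on chromosome 2, -0.68 ± 0.05 on chromosome 9, -0.66 ± 0.06 on chromosome 10, -0.48 ± 0.06 on chromosome 16 and -0.38 ± 0.04 on chromosome 19. All 5 were below the genome's median difference before any scaling. On arrays scaled to the same spread, chromosome 19 was at -0.14 ± 0.03, near the median of all windows there (-0.13). Chromosome 19 was within 1 standard error of 0 after quantile normalization (-0.037 ± 0.040) and after scaling with window centring (-0.029 ± 0.032). Chromosome 16 was at -0.19 ± 0.06 and -0.15 ± 0.05 under these settings. Chromosome 2 was the lowest of the 5 with no such step and also under these settings, at -0.80 ± 0.04 and -0.62 ± 0.03. The errors are over neighbouring probes, so this order of the clusters was not tested. Windows of the whole genome with like timing, the cluster windows among them, were also lower on the KO array. Matched in 20 bins on the mean of the induced and non-induced arrays, they averaged -0.37 for the set of cluster windows. Of the 57 cluster windows, 51 were below their like, including 25 of 25 on chromosome 2, 11 of 12 on chromosome 9, 5 of 5 on chromosome 10, 4 of 5 on chromosome 16 and 6 of 10 on chromosome 19.

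Calls of single windows required a difference of 0.25 times the window spread of the control array (0.45 log2) or more, and of 3 SE or more. This is a rule of size and not a test between conditions. In KO cells 42 of the 57 cluster windows (73.7%) were called later, against 22.1% of all windows and 35.8% of windows of like timing, and 0 were called earlier, against 8.06% of all windows. The later windows were 20 of 25 on chromosome 2, 10 of 12 on chromosome 9, 4 of 5 on chromosome 10, 4 of 5 on chromosome 16 and 4 of 10 on chromosome 19. The chromosome 19 share (40.0%) was near that of its windows of like timing (31.1%). With arrays centred on their median window in place of their median probe, 31 of the 57 windows were later, against 12.6% of all windows (15.3% were earlier). With arrays scaled to the same spread the clusters differed by -0.48 and 27 windows were later, against 13.6% of all windows (6.40% were earlier).

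The lowest KO minus control window of chromosome 2, from 86800001 to 87000000 (20 probes), was at -1.37 in KO and 0.14 in control cells, a difference of -1.50 ± 0.18. It ranked at percentile 10.9 of the KO array and 59.9 of the control array. The window with the highest timing of this cluster over the 4 arrays, from 86600001 to 86800000 (20 probes), was at -1.06 in KO and 0.26 in control cells. At the other end of the range, the lowest window of the cluster, from 85400001 to 85600000 (16 probes), was at -1.23 in KO and -0.79 in control cells. On chromosome 9 the lowest difference was -1.07 ± 0.17, in the window from 38000001 to 38200000 (14 probes), at -1.29 in KO and -0.22 in control cells. The 5 windows of chromosome 2 that were not called later had control timing between -1.03 and -0.63, at or near the late end of that cluster's range. The window of chromosome 10 with the lowest difference, from 129400001 to 129600000 (17 probes), was at -1.57 in KO and -0.79 in control cells. For chromosome 16 it was the window from 59000001 to 59200000 (17 probes), at -1.42 in KO and -0.70 in control cells, and for chromosome 19 the window from 13400001 to 13600000 (18 probes), at -1.42 in KO and -0.53 in control cells. The exception to the direction among the 57 windows was the first whole window of chromosome 19, from 12000001 to 12200000 (20 probes), at -0.19 in KO and -0.22 in control cells, a difference of 0.03 ± 0.08.

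Around chromosome 9 the flanks went the other way from the cluster. They were earlier in KO cells by 0.22 ± 0.05 before the cluster and by 0.37 ± 0.05 after it, at 0.16 and 0.61 in KO cells, against -0.06 and 0.24 in control cells. The contrast of the chromosome 9 cluster with its flanks was therefore larger in KO cells, with cluster minus flanks at -1.53 ± 0.06, against -0.56 ± 0.05 in control cells. The flanks of chromosome 2 differed by -0.11 ± 0.05 before and -0.13 ± 0.06 after the cluster, which is close to the genome's median difference. The flank after chromosome 16 differed by -0.65 ± 0.07, which was more than its cluster (-0.48 ± 0.06), and the late flank after chromosome 19 differed by -0.38 ± 0.06, as its cluster did. On chromosomes 16 and 19 the KO difference was therefore not larger in the cluster than in the flank after it. The late flank after chromosome 10 (29 probes) differed by -0.56 ± 0.07, near its cluster at -0.66 ± 0.06.

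The second comparison is of induced with non-induced cells. The clusters were later in induced cells, with an induced minus non-induced difference of -0.52 ± 0.02 over all probes and 79.6% of probes lower, while the flanks differed by -0.07 ± 0.02 and the median of all windows by -0.13. By cluster, induced minus non-induced timing was -0.57 ± 0.04 on chromosome 2, -0.61 ± 0.05 on chromosome 9, -0.36 ± 0.05 on chromosome 10, -0.34 ± 0.05 on chromosome 16 and -0.48 ± 0.04 on chromosome 19. Windows of like timing, here matched on the mean of the KO and control arrays, averaged -0.40. Below their like were 42 of the 57 cluster windows, including 20 of 25 on chromosome 2 and 11 of 12 on chromosome 9, but 2 of 5 on chromosome 10 and 2 of 5 on chromosome 16. On chromosome 19 it was 7 of 10.

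In induced cells 27 of the 57 windows (47.4%) were called later at a threshold of 0.52 log2 and 3 SE, against 11.9% of all windows and 21.7% of windows of like timing. No cluster window was called earlier (0 of 57), against 0.467% of all windows. The later windows were 12 of 25 on chromosome 2, 9 of 12 on chromosome 9, 2 of 5 on chromosome 10, 1 of 5 on chromosome 16 and 3 of 10 on chromosome 19. The shares on chromosome 16 (20.0%) and chromosome 19 (30.0%) were near those of their windows of like timing (19.7% and 22.6%). The count of 27 rested on the scale of the arrays more than the KO count did. Centring arrays on their median window left 11 later windows, against 3.50% of all windows (5.87% were earlier), and scaling arrays to the same spread left 8, against 1.87% (0.0667% were earlier). On the scaled arrays the clusters differed by -0.23 over all probes, with -0.31 on chromosome 2, -0.29 on chromosome 9, -0.04 on chromosome 10, -0.04 on chromosome 16 and -0.18 on chromosome 19. The median of all windows differed by -0.09 there, so chromosomes 10 and 16 were not below it. Below their like on the scaled arrays were 38 of the 57 windows, with 2 of 5 on chromosome 10 and 1 of 5 on chromosome 16. The sign turned on chromosomes 10 and 16 with quantile normalization (0.065 and 0.054) and with scaling and window centring together (0.068 and 0.072).

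The lowest induced minus non-induced window of chromosome 2, from 88000001 to 88200000 (14 probes), was at -1.47 in induced and -0.48 in non-induced cells, a difference of -0.998 ± 0.20. On chromosome 9 it was the window from 38000001 to 38200000, which also had that cluster's lowest KO difference, at -1.52 in induced and -0.53 in non-induced cells, a difference of -0.99 ± 0.19. The lowest windows of the other clusters were at -1.82 in induced and -1.24 in non-induced cells on chromosome 10 (129200001 to 129400000), at -1.60 and -1.05 on chromosome 16 (59200001 to 59400000), and at -1.67 and -0.80 on chromosome 19 (13200001 to 13400000). The early flanks of chromosomes 2 and 10 were earlier in induced cells, by 0.19 ± 0.05 before and 0.11 ± 0.05 after the chromosome 2 cluster and by 0.26 ± 0.05 before the chromosome 10 cluster. The flanks after chromosomes 10, 16 and 19 were later, with differences of -0.64 ± 0.11, -0.52 ± 0.09 and -0.49 ± 0.09. On these 3 chromosomes the flank after the cluster differed by as much as the cluster or more.

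The 2 comparisons share no array, so their windows can be set side by side. Called later in both were 23 windows, which are 54.8% of the KO calls and 85.2% of the induced calls. Over all 12000 windows 6.55% were called later in both, which are 29.6% of the KO calls and 54.8% of the induced calls. A further 19 cluster windows were later in KO cells alone, against 15.6% of all windows, 4 in induced cells alone, against 5.40%, and 11 in neither, against 72.5%. Of the 57 windows, 55 had a negative difference in both comparisons, against 47.2% of all windows. These shares of all windows are not matched for timing, and no share was computed for windows of like timing. Such windows averaged -0.37 in the KO and -0.40 in the induced comparison, so whether the overlap is particular to the clusters was not tested. Across the 57 windows the 2 differences had a Pearson's r of 0.57, and across all windows 0.49, as a description of neighbouring windows that share probes, array design and base composition. At or above 0 in timing were 0 of the 57 windows in KO, 12 in control, 1 in induced and 2 in non-induced cells, and the 12 of the control array all lay in the chromosome 2 cluster. The median of all windows was itself -0.39 in KO, -0.16 in control, -0.51 in induced and -0.26 in non-induced cells. The share of all windows at or above 0 was not computed, so these counts are not particular to the clusters on this evidence. Non-induced and control cells, which lie on different slides, also differed in the clusters, by -0.30 ± 0.02 (non-induced minus control). The median of all windows differed by -0.06, and windows of like timing averaged -0.20. By cluster it was -0.38 on chromosome 2, -0.28 on chromosome 9, -0.23 on chromosome 10, -0.47 on chromosome 16 and -0.11 on chromosome 19. On chromosome 16 this was as large as the KO minus control difference (-0.48) and larger than the induced minus non-induced one (-0.34). Slide and cells cannot be told apart there.

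**Figure D4:**
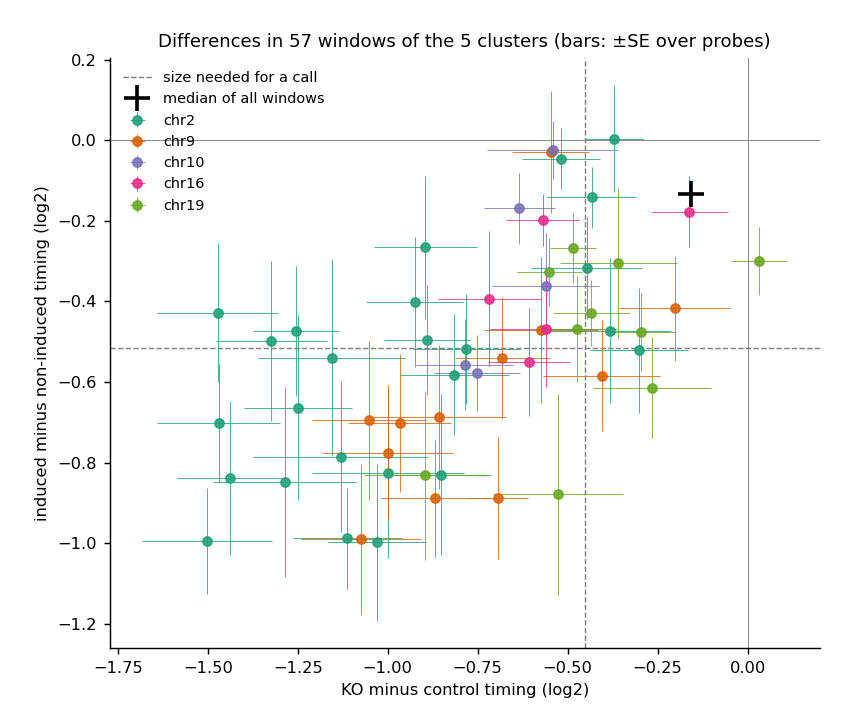
KO minus control timing (x axis, log2) against induced minus non-induced timing (y axis, log2) for the 57 cluster windows, coloured by cluster, with bars for the SE over probes, dashed lines at the sizes needed for a call and a cross at the median of all windows (-0.16 and -0.13). Of the 57 points, 55 lie below 0 on both axes, and the 23 windows called in both lie at the lower left.

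The early and the late channel took different parts in the 2 comparisons. In KO cells the early signal of the clusters, relative to that channel's autosomal median, was -1.29, against -0.30 in control cells, a difference of -0.99, and the late signal was -0.20, against 0.10, a difference of -0.30. The KO difference was thus a lower early signal with a smaller drop of the late signal. In induced cells the early signal was -1.22, against -1.001 in non-induced cells, a difference of -0.22, and the late signal was 0.03, against -0.22, a difference of 0.25. There the 2 channels moved apart by like amounts. On the chromosome 2 cluster the early signal was -1.62 in KO, -0.44 in control, -1.59 in induced and -1.34 in non-induced cells, and the late signal -0.53, -0.29, -0.46 and -0.72. On the chromosome 10 cluster the early signal was -1.38 in KO and -0.15 in control cells, against -0.67 in induced and -0.67 in non-induced cells, so that its induced difference came from the late channel, at 0.69 in induced and 0.38 in non-induced cells.

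**Figure D5:**
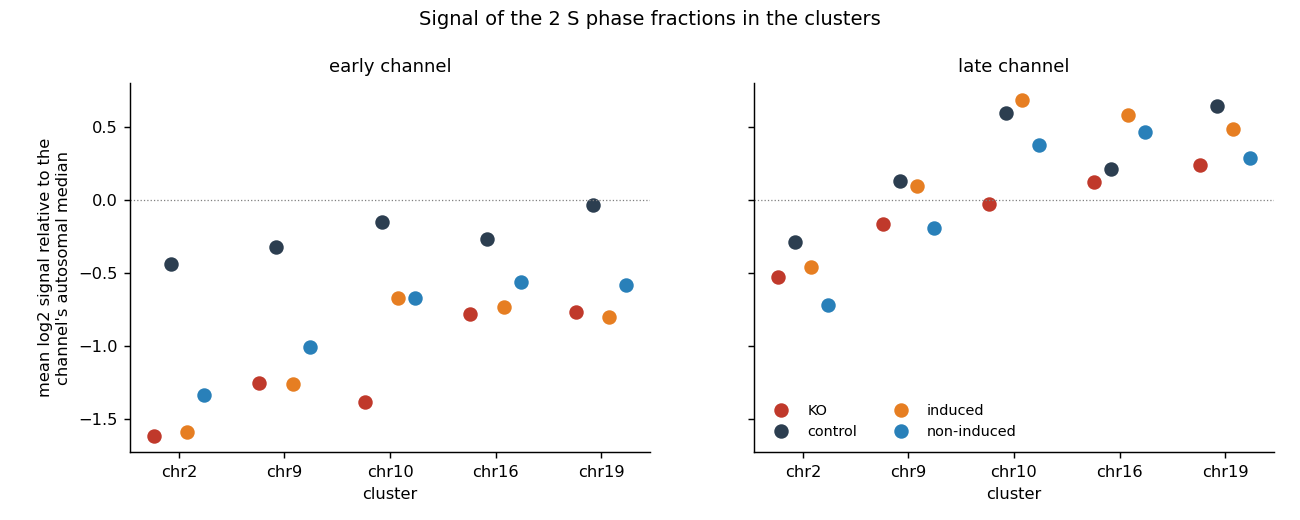
Mean signal of the early (left) and late (right) channel in each cluster, on the log2 scale relative to the channel's autosomal median, with a point per group. Early signal of the control array lies between -0.44 and -0.04 in the 5 clusters, above the other 3 arrays, and the chromosome 2 cluster has the lowest late signal on all 4 arrays.

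Low signal accompanied these differences. Of the cluster probes, 83.1% in KO, 97.0% in control, 70.9% in induced and 87.4% in non-induced cells were well above background in the early channel, against 94.6%, 98.4%, 89.6% and 95.7% of all probes. Probes well above background in both channels on all 4 arrays made up 68.0% of the cluster probes (719 of 1058), 86.1% of the flank probes and 83.6% of all probes. Over these 719 probes the clusters differed by -0.52 in the KO comparison and by -0.35 in the induced one. A probe with low early signal on the KO or induced array leaves this set, so the part of low signal in the differences was not tested. Their later windows numbered 35 in KO cells, against 14.2% of all windows tested (10.1% were earlier), and 10 in induced cells, against 5.75% (0.222% were earlier).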

How the data were processed

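Agilent 2-colour arrays were read with Feature Extraction 11.5.1.1 per the file headers, while the submitters' processing notes name version 9.1. The authors' processed signal is an intensity after background subtraction and dye scaling, per the file headers, and the deposited log10 ratio of late over early equalled the deposited value table in all 180880 spots of each array. Spot flags, another kind of deposited value, are 0 or 1.

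Timing is the log2 value of early divided by late processed signal, computed after dropping control spots and 154 to 447 flagged spots per array and taking the mean of repeat spots. Arrays were set to 0 at their autosomal probe median, with no loess or quantile step, and the deposited log10 values served as an alternative. Precision is limited by 1 array per group. The spread between repeat spots of the same probe, for probes with at least 5 usable spots, was 0.13 to 0.16 (median SD, log2). Calls need 0.25 of the reference array's spread and 3 SE, and were tested on simulated data. In these data probe noise was shuffled across the genome and the arrays did not differ in scale. Effects of array scale and of likeness between neighbouring probes were therefore not covered. The members, gene lists and tests were chosen with earlier results of these data known. Windows named in the text are, per cluster, those with the lowest and highest mean timing and the lowest difference in each comparison. Named genes are the protein-coding neighbours of the runs and every other protein-coding gene within them. They were chosen after the gene table was seen, because the files pair no probe with a gene. For the same reason other chemoreceptor families, olfactory signalling genes and the targeted gene were not analysed here. Alternatives covered centring, scaling, quantile normalization, loess, normexp background correction (offset 50, on median signals), dim probes, bounds, flanks, window size, thresholds and the reference array. Tools were R 4.3.3 with limma 3.58.1, and Python 3.11.15 with matplotlib 3.10.9, scipy 1.17.1, pandas 2.3.3 and numpy 2.4.6.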

Additional observations from a re-analysis of the deposited data

Results flagged for a closer look

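Flank values are given here where the KO and the induced difference had opposite signs, so that the 2 comparisons, each of 1 array with 1 array, moved a flank in different directions. These differences between the comparisons were not tested. Before the chromosome 2 cluster the difference was -0.11 for KO minus control and 0.19 for induced minus non-induced, and after it -0.13 and 0.11. Before the chromosome 9 cluster it was 0.22 and -0.073, and before the chromosome 10 cluster -0.24 and 0.26. Before the chromosome 16 cluster both values were within their standard errors of 0, at 0.0090 for KO minus control and -0.00046 for induced minus non-induced. These signs are relative to the median probe. Relative to the median difference of all windows, the chromosome 2 flanks were at 0.042 and 0.023 in the KO comparison and the flank before chromosome 9 was at 0.062 in the induced one, so that opposite signs held there for the flank before chromosome 10 alone (-0.081 for KO minus control and 0.39 for induced minus non-induced).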

How the results depend on the processing

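No paired analysis was possible because each group has 1 array. The 5 clusters as a set stayed later in KO than in control cells and in induced than in non-induced cells under all alternatives run, with ranges of -0.81 to -0.30 and -0.83 to -0.12, and stayed later than their 1 Mb flanks on all arrays. Under the alternatives, 0 KO windows of the clusters were called earlier, against 5.83 to 15.3% of all windows. At most 2 induced windows of the clusters were called earlier, against 0.0667 to 9.24% of all windows. The KO difference (-0.73) was -0.48 after scaling to the same spread, -0.47 after quantile normalization, -0.30 after normexp correction and -0.37 after scaling and window centring together, which was added after seeing the data. The 42 later KO windows became 27, 24, 19 and 24 under these 4 settings, against 8.58 to 13.6% of all windows, 22 of 32 without the chromosome 2 cluster, 74 of 118 with windows of 100 kb and 17 of 22 with windows of 500 kb, against 22.1, 15.4 and 26.1% of all windows. The induced difference (-0.52) was -0.32 with window centring, -0.23 scaled, -0.17 after quantile normalization, -0.21 after normexp correction, -0.35 over probes well above background, -0.12 scaled and window-centred, and -0.83 against the control array. The 27 later induced windows became 11, 8, 4, 4, 10, 3 and 46 under these settings, against 0.725 to 5.75% of all windows (29.7% against the control array), 16 after loess, 13 over odd-numbered probes, 15 of 32 without the chromosome 2 cluster, 14 of 22 with windows of 500 kb and 17 at 4 SE, against 7.53, 6.87, 11.9, 18.9 and 6.99% of all windows. With flanks of 0.5 Mb the chromosome 19 cluster minus its flanks turned above 0 on all 4 arrays, at 0.081 in KO, 0.072 in control, 0.088 in induced and 0.237 in non-induced cells. The induced difference turned above 0 on chromosomes 10 and 16, at 0.065 and 0.054 after quantile normalization and 0.068 and 0.072 scaled and window-centred. Fewer probes, fewer windows or a stricter threshold enter some of these settings by construction, and for the others the cause was not tested. Of the other values, 133 moved by more than their error or by over 1.5 times, 8 changed sign (above) and 339 did neither. The low early signal of the clusters and 1 array per group limit what these values can show.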
